A study of Mus musculus with 9 samples.

Results

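The 10 genes described here encode simple keratins (Krt8, Krt18, Krt19 and Krt7) and parts of the contractile actin cytoskeleton (Tagln, Acta2, Cnn1, Cnn2, Tpm1 and Myl9), followed in mouse embryonic stem (ES) cells as they left the undifferentiated state. They were chosen by name, as probe sets whose platform annotation gives only that symbol, out of 18193 genes with such a probe set. All 10 had at least 1, with 17 probe sets in all, and each gene is represented by its brightest. Of the 10, 8 read 50 or more on at least 2 of the 9 arrays and were tested among 8716 such genes, while Krt7 and Cnn1 did not and are described only.

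The groups were 4 Dox- arrays and 4 Dox+ arrays, taken 0.5, 1.5, 2.5 and 3.5 days after differentiation began (D0.5 to D3.5), and 1 array of undifferentiated cells. Dox+ cells were differentiated with doxycycline at 1 µg/ml and Dox- cells without it. Per the labels, the cells carry a protein kinase A (PKA) that is always active once made and whose making doxycycline controls. PKA is the main effector of cyclic AMP, and the labels do not state which medium switches the transgene on. Undifferentiated cells grew with leukemia inhibitory factor and doxycycline, and all differentiating cells grew in serum medium without that factor. The sources used here do not give the transgene's promoter, the parental line or whether it was 1 clone. Every combination of day and medium was 1 array with no replicate and neighbouring values of a gene have no spread of their own to be judged by. Precision is limited by this number of arrays. A test of media used the 4 days as repeats and a test of days used the 2 media, so p-values measure only the spread between these arrays. Signals are linear and scaled per array to an average of 100. Differences are of log2(signal + 16), which understates the change of dim genes.

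Across the arrays, 41.6% to 44.2% of named genes read at least 50. The 7 ES cell markers, among them Pou5f1 and Sox2, all reached 50 on some array, and on D3.5 5 did in each medium. They summed to 2261 to 8591 on the Dox- arrays, 4574 to 8427 on the Dox+ arrays and 11130 in undifferentiated cells. The D3.5 array of Dox- had the lowest sum, of which Tbx3 gave 1061, against 58.6 in Dox+ and 811.5 in undifferentiated cells. Nanog on D3.5 read 306 in Dox- and 1887 in Dox+, against 1630 in undifferentiated cells. The other markers were below undifferentiated cells in both media on D3.5. The 3' to 5' signal ratio of Actb, a sign of RNA integrity, on D3.5 was 1.63 in Dox- and 1.94 in Dox+, and lay between 1.60 and 1.98 on the rest. The arrays are of bulk RNA, so fewer cells of a type and less RNA per cell cannot be told apart.

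Keratins build intermediate filaments from pairs of a type II and a type I protein. KRT8 and KRT7 are type II, KRT18 and KRT19 are type I, and the pair of KRT8 and KRT18 is the first to appear in the mouse embryo and a standard mark of simple epithelium and trophectoderm. The other members act on actin filaments. Acta2 encodes smooth muscle actin, Tpm1 a tropomyosin that lies along the filament, Tagln (transgelin, or SM22) and Cnn1 and Cnn2 (calponins) proteins that bind and bundle it, and Myl9 the regulatory light chain through which myosin II contraction is switched on. Contractile genes of this kind are known targets of serum response factor (SRF), which binds CArG boxes, and of its actin-sensing cofactors of the MRTF family.

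Promoter sequence came from RefSeq (GRCm38.p6) for 8 of the 10 genes, all but Tagln and Krt19, and the 250 bases before each start were searched on both strands. A CArG box, CC and GG around a core of 6 bases that are all A or T, was found in Myl9 and Cnn2, against 1.47% of 32851 promoters. Acta2 held 2 boxes with 1 G or C in the core, a form present in 7.24% of promoters, and Myl9 held 1 of these as well. The stretches of Acta2, Cnn2 and Myl9 are shown because they hold these boxes, exact in Cnn2, of the other form in Acta2 and of both forms in Myl9. Capitals mark the CArG boxes, exact or with 1 such base, and each stretch runs 5′ to 3′ on the gene's strand.
Acta2: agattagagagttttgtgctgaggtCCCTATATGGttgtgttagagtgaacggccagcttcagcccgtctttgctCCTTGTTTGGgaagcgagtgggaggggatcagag
Cnn2: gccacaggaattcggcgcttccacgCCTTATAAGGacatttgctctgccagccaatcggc
Myl9: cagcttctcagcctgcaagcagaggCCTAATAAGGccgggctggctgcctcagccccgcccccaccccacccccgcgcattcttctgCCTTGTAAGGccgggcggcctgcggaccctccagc
They lie at chr19:34255374-34255482, minus strand (Acta2), chr10:79988519-79988578, plus strand (Cnn2) and chr2:156775278-156775399, plus strand (Myl9). The last 100 bases before the starts of Krt8 and Krt18, both on chromosome 15, are shown as the pair whose products assemble together, with TATAA in capitals where it occurs, which is in Krt18 only.
Krt8: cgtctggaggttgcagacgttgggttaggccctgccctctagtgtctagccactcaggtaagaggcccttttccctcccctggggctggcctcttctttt
Krt18: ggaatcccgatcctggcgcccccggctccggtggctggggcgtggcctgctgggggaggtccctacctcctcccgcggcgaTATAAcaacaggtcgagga
They lie at chr15:102004343-102004442, minus strand (Krt8) and chr15:102028116-102028215, plus strand (Krt18). TATAA was found before the starts of Krt18 and Cnn2 and in 22.8% of all promoters, and in Cnn2 it overlaps the CArG box. The cyclic AMP response element TGACGTCA was found in 0 of the 8, against 1.55% of promoters, and its shorter form TGACG in Tpm1 only, against 17.8%. The TEAD motif GGAATG was found in Tpm1 and Acta2, against 12.6%, and the AP-1 motif TGACTCA in 0 of the 8, against 4.46%. A match is a run of letters and not a shown site of binding.

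The 3 tested keratins rose steeply in both media. Krt8 read 27.2, 254, 529 and 2609 on the 4 Dox- arrays in order of day, 24.3, 86.5, 265 and 545 on the Dox+ arrays, and 26.7 in undifferentiated cells. It was level with undifferentiated cells on D0.5 and higher on each later day in both media. Between D0.5 and D3.5, with the medium as a block, it rose by 4.86 ± 0.45 (SE, 2 arrays a day; limma adjusted p = 0.0038). Krt18 read 46.5, 575, 585 and 3004 on the Dox- arrays, 43.5, 261, 762 and 859.8 on the Dox+ arrays, and 30.3 in undifferentiated cells. Its course had a plateau in each medium, from D1.5 to D2.5 in Dox- and from D2.5 to D3.5 in Dox+. The fitted rise from D0.5 to D3.5 was 4.74 ± 0.49 (limma adjusted p = 0.00441). Krt19, whose product is a short type I keratin of ducts and the gut lining, read 10.8, 20.1, 97.9 and 424.5 on the Dox- arrays, 3.5, 23.7, 56.3 and 98 on the Dox+ arrays, and 7.8 in undifferentiated cells. Its signal was lowest in Dox+ on D0.5 and highest in Dox- on D3.5, and on D1.5 the media read nearly alike. Its rise from D0.5 to D3.5 was 3.29 ± 0.47 (limma adjusted p = 0.00892). Krt7, the type II keratin of many glandular epithelia, read 5.5 to 27.6 on the Dox- arrays, 9.7 to 23.9 on the Dox+ arrays and 8.4 in undifferentiated cells. It was thus dim on all 9 arrays and showed no order by day.

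**Figure D1:**
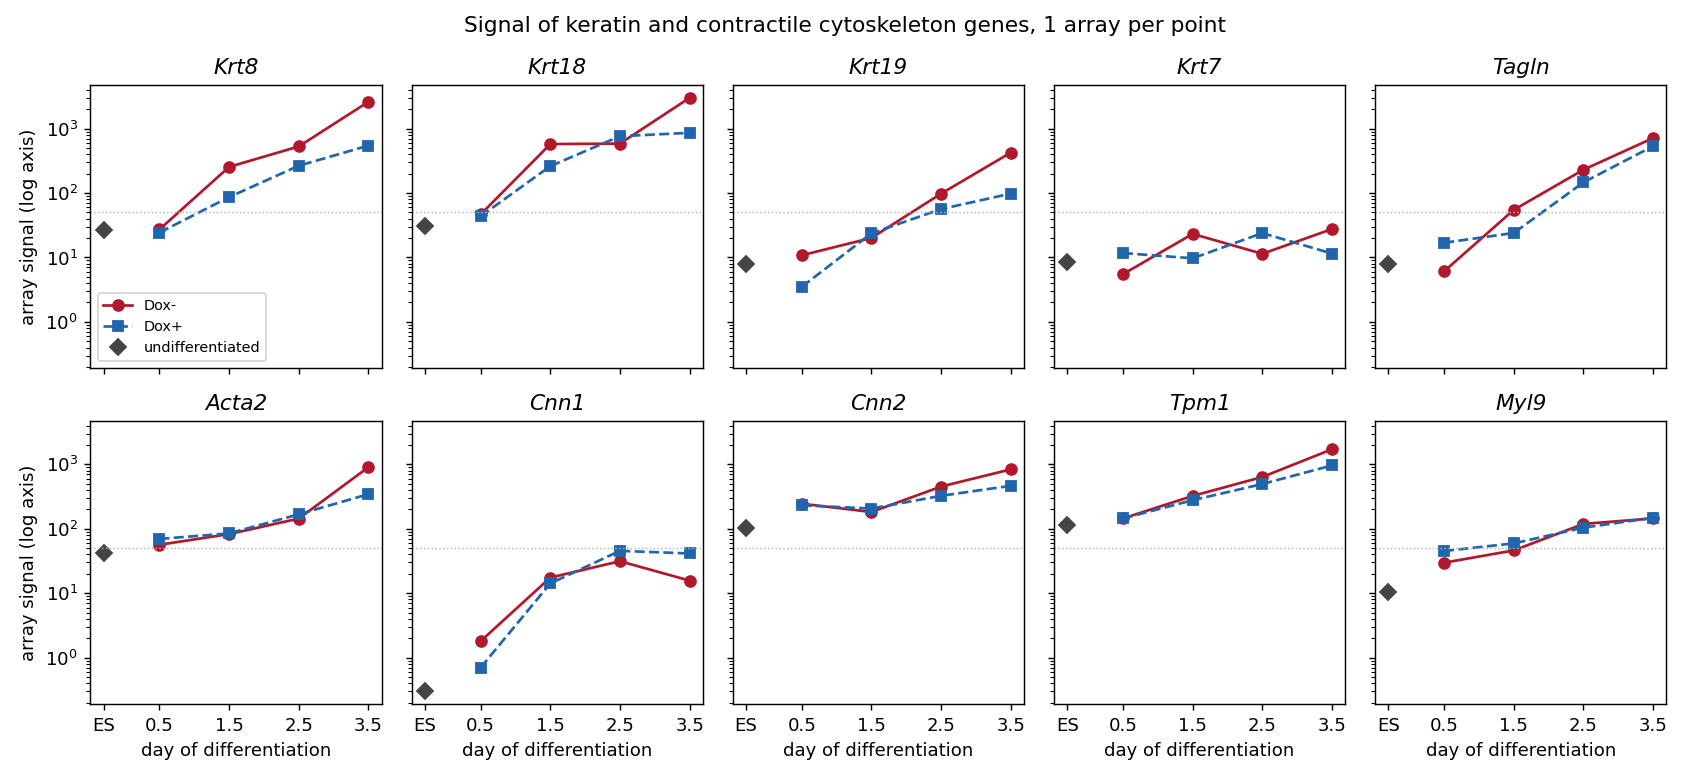
Array signal (log axis) of the 10 genes against day of differentiation, 1 array per point, for Dox- (red circles), Dox+ (blue squares) and undifferentiated ES cells (grey diamonds, at ES); the dotted line is a signal of 50. On D3.5 Krt8 reached 2609 in Dox- against 545 in Dox+, while the Myl9 curves met at 145 and 149.

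Contractile transcripts rose as well, from higher or lower starting levels. Tagln read 6.1, 54.8, 230.0 and 714 on the Dox- arrays, 16.9, 24.0, 147 and 534 on the Dox+ arrays, and 8.0 in undifferentiated cells. It rose by 4.55 ± 0.33 between D0.5 and D3.5 (SE, 2 arrays a day; limma adjusted p = 0.00292), close to the rise of the keratins Krt8 and Krt18. Acta2 read 56.5, 82.8, 144 and 906 on the Dox- arrays, 69.6, 84.9, 168 and 345 on the Dox+ arrays, and 42.7 in undifferentiated cells. The media lay close together until D2.5 and apart on D3.5. Its fitted rise was 2.87 ± 0.39 (limma adjusted p = 0.00798), and its probe set is of a type that can take up related transcripts, so other actins may add to it. With the mean of its 3 probe sets, of which the other 2 stayed dim, the rise was 0.98 (limma adjusted p = 0.0276). Tpm1 read 145, 324, 637 and 1716 on the Dox- arrays, 145, 278, 495 and 963 on the Dox+ arrays, and 114 in undifferentiated cells. It rose on every step in both media, by 3.02 ± 0.21 in the fit (limma adjusted p = 0.00292). Myl9 read 29.8, 46.2, 119 and 145 on the Dox- arrays, 45.3, 59.4, 104 and 149 on the Dox+ arrays, and 10.4 in undifferentiated cells. Its rise was 1.62 ± 0.20 (limma adjusted p = 0.00648). Cnn2, the calponin of non-muscle cells, read 245, 182, 453 and 837 on the Dox- arrays, 232, 206, 325 and 465 on the Dox+ arrays, and 104 in undifferentiated cells. Unlike the other tested members, Cnn2 and Myl9 were already at least 2-fold above undifferentiated cells on the Dox+ array of D0.5, by 1.04 and 1.22, and on the Dox- array by 1.12 and 0.79. Cnn2 rose by 1.33 ± 0.24 between D0.5 and D3.5 (limma adjusted p = 0.0159). Cnn1, the calponin of smooth muscle, read 1.8, 17.5, 31.4 and 15.7 on the Dox- arrays, 0.7, 14.2, 45.5 and 41.4 on the Dox+ arrays, and 0.3 in undifferentiated cells. All of these lie below 50, and its highest values were on the later Dox+ arrays.

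All 8 tested members were thus called higher on D3.5 than on D0.5, where 11.8% of the 8716 tested genes were called higher and 10.2% lower, and their median difference was 3.16 against 0.02 over all tested genes. Krt8, Krt18, Krt19, Tagln and Myl9 read under 50 on the undifferentiated and both D0.5 arrays, so they passed the signal filter only through later arrays and had to differ. The p-values of these genes, and the count and median over the members, are thus descriptions and no support. Acta2, Cnn2 and Tpm1 passed it on the D0.5 arrays too. Against undifferentiated cells, which all these comparisons share as 1 array, members higher by at least 2-fold numbered 1 of 8 in Dox- and 2 of 8 in Dox+ on D0.5, where 1.57% and 1.43% of tested genes were. On D1.5 there were 5 in Dox- and 4 in Dox+ (8.74% and 7.47% of genes). On D2.5 all 8 were higher in both media, against 10.4% of genes in Dox- and 9.55% in Dox+. The same held on D3.5, against 12.7% in Dox- and 11.1% in Dox+. The D3.5 difference was largest for Krt18, at 6.03 in Dox-, and for Tagln, at 4.52 in Dox+, and smallest for Myl9 in Dox- (2.61) and Cnn2 in Dox+ (2.00).

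With no filter, 2 more members could be tested, both under 50 on all arrays. The fitted change from D0.5 to D3.5 was 1.31 for Cnn1 (limma adjusted p = 0.0392) and 0.50 for Krt7 (limma adjusted p = 0.421). For Cnn1 it starts from 1.8 in Dox- and 0.7 in Dox+, and was larger in Dox+ (41.4 on D3.5). In Dox- Cnn1 fell from 31.4 on D2.5 to 15.7 on D3.5.

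For the 3 tested keratins and Acta2 the media parted most on D3.5, when each was at least 2-fold higher in Dox-. The differences, Dox- minus Dox+, were 2.22 for Krt8, 1.95 for Krt19, 1.79 for Krt18 and 1.35 for Acta2. Cnn2 (0.83), Tpm1 (0.82) and Tagln (0.41) were less than 2-fold higher, and Myl9 gave -0.03. So 4 of the 8 tested members were at least 2-fold higher and 0 lower, where 4.13% of tested genes were at least 2-fold higher and 4.8% lower. Their median was 1.09, against 0.00 over all tested genes. The dim members lay on either side of 0, with Krt7 at 0.66 and Cnn1 at -0.86. Each value sets 1 array against 1 other, with no test.

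On D1.5 the difference was in the keratin pair Krt8 and Krt18, at 1.40 and 1.09. These were the 2 of 8 tested members at least 2-fold higher in Dox-, against 1.33% of tested genes, and 0 were lower, against 1.42%. Krt19 gave -0.14. Among contractile members Tagln gave 0.82, Tpm1 0.21, and Acta2, Cnn2 and Myl9 lay between -0.28 and -0.03. On D2.5 no tested member was 2-fold apart, where 3.41% of tested genes were higher and 4.45% lower. There the keratin pair split, with Krt8 higher in Dox- (0.95) and Krt18 lower (-0.37), and Krt18 read 575 and 585 in Dox- on D1.5 and D2.5 while it rose by 1.49 over that step in Dox+. All 3 probe sets of Krt8 agree on its values of D1.5 to D3.5, at 1.40, 1.62 and 1.49 on D1.5, 0.95, 0.95 and 0.85 on D2.5, and then 2.22, 2.33 and 2.11 on D3.5. The other 2 probe sets of Krt8 are of a type that can take up related transcripts, so this check is limited. Krt18 has 1 probe set, so its dip on D2.5 has no such check. On D0.5 the 8 members lay between -0.57 (Tagln) and 0.46 (Krt19) and none was 2-fold apart, against 0.0918% of tested genes higher and 0.0229% lower.

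**Figure D2:**
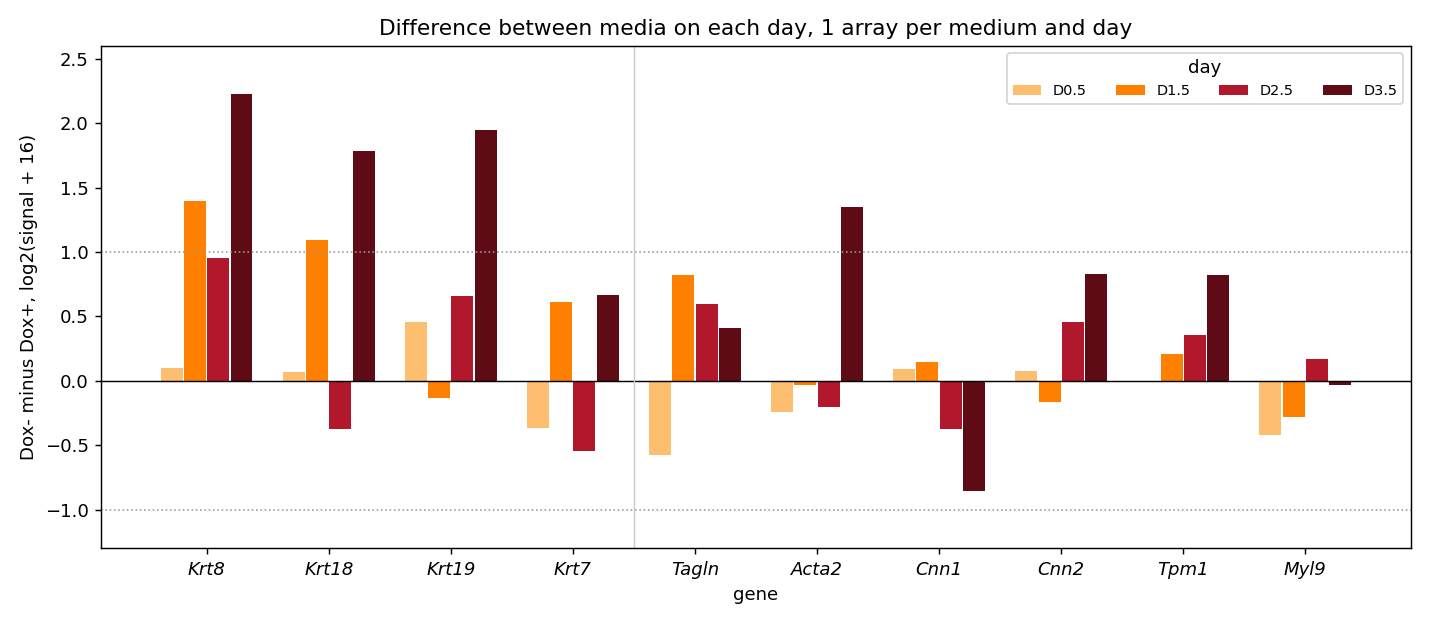
Dox- minus Dox+ difference of log2(signal + 16) for each gene on D0.5, D1.5, D2.5 and D3.5 (light to dark bars), with 1 array per medium and day; keratins stand left of the vertical line, contractile genes right of it, and dotted lines mark 2-fold. On D3.5 Krt8, Krt18, Krt19 and Acta2 pass 2-fold, while Krt18 and Acta2 lie below 0 on D2.5.

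Tpm1, which makes many transcripts from alternative exons, was read by 3 bright probe sets that differed between media in different ways. The brightest gave 0.21, 0.35 and 0.82 on D1.5, D2.5 and D3.5. The next gave 0.87, 0.82 and 0.62, with 375 in Dox- against 198 in Dox+ on D1.5, so that it parted the media early. The third gave 0.18, 0.22 and 0.91. A further probe set of Tpm1 and both further ones of Acta2 stayed at or below 10.5 on all arrays. The sources used here do not say which Tpm1 transcripts each probe set reads.

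Over the 4 days together no member passed. The test with the day as a block called 0 of the 8 members and 0% of the 8716 genes, while 11.8% of genes, and of the members only Krt8, had an unadjusted p under 0.05. Krt8 differed by 1.17 ± 0.32 (SE, 4 days) with limma adjusted p = 0.416. It was higher in Dox- on 4 of 4 days by its brightest probe set, but on D0.5, where all its probe sets were dim, the other 2 were lower in Dox- (-0.35 and -0.24). Krt19 gave 0.73 ± 0.33 and Krt18 0.64 ± 0.35 (limma adjusted p = 0.427 and 0.466). The contractile members lay between -0.14 ± 0.14 for Myl9 and 0.35 ± 0.15 for Tpm1. Nor did the change of the medium difference with day pass for any member (0 of 8, and 0% of genes, at limma adjusted p under 0.05). Krt8 (0.59 ± 0.18 per day), Tpm1 (0.26 ± 0.08) and Krt19 (0.53 ± 0.22) had limma adjusted p = 0.547, 0.562 and 0.59. These 3 members had an unadjusted p under 0.05 in that fit, as did 8.44% of genes.

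A late fit, with a single medium difference for D2.5 together with D3.5, was chosen with the values known, and it called 1 member. The fit had no medium term for D0.5 and D1.5, so differences between the media on those days counted as spread. For Krt8 and Krt18 these were 1.40 and 1.09 on D1.5. Over all tested genes 2.83% were called higher and 4.35% lower. Cnn2 was higher in Dox- by 0.64 ± 0.14 on D2.5 and D3.5 (SE, spread of all 4 days, limma adjusted p = 0.0419). This call was lost without the signal filter (limma adjusted p = 0.0637), without the trend in eBayes (0.0557), without D0.5 (0.116) and without D3.5 (0.273). Leaving out D2.5 gave 4 calls instead, Acta2, Krt19, Tpm1 and Cnn2. That difference is of 1 Dox- and 1 Dox+ array on D3.5, whose spread is assumed to be that of the earlier days. Leaving out D1.5 gave 2, Krt8 and Cnn2. Krt8 gave 1.59 ± 0.46 (limma adjusted p = 0.0862), Krt19 1.30 ± 0.33 (0.0602) and Tpm1 0.59 ± 0.15 (0.066). Krt18 gave 0.71 ± 0.51 and Acta2 0.58 ± 0.32 (limma adjusted p = 0.441 and 0.323), and both rested on D3.5, since without that day they stood at -0.37 and -0.20.

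Set against Dox+ cells of the next day, Dox- cells had close to equal Krt8. This comparison was added after the values were seen. Krt8 in Dox- differed by -0.06 on D1.5 from Dox+ on D2.5 (254 and 265), and by -0.04 on D2.5 from Dox+ on D3.5 (529 and 545). Krt19 gave -1.002 and -0.001 in the same comparisons, and Krt18 -0.40 and -0.54. Of the contractile members, Tagln gave -1.20 and -1.16, Acta2 -0.90 and -1.17, Tpm1 -0.59 and -0.58, Myl9 -0.95 and -0.28, and Cnn2 -0.78 and -0.04. All 8 were thus below the next day's Dox+ cells in both comparisons, Krt8 by almost nothing in both and Krt19 in the second. Their medians were -0.84 and -0.41, against 0.00 and -0.003 over all tested genes, and keratins and contractile members overlapped. Tagln and Krt19 were the 2 members at least 2-fold lower in the first of these, where 0.252% of tested genes were, and Tagln and Acta2 in the second, where 2% were. None was 2-fold higher, against 0.769% and 1.85%. Dox- cells of D0.5 had less than Dox+ cells of D1.5 for Krt18 (-2.15) and Krt8 (-1.25), the 2 members at least 2-fold lower there, against 4.36% of genes. None was 2-fold higher there, against 2.33%.

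**Figure D3:**
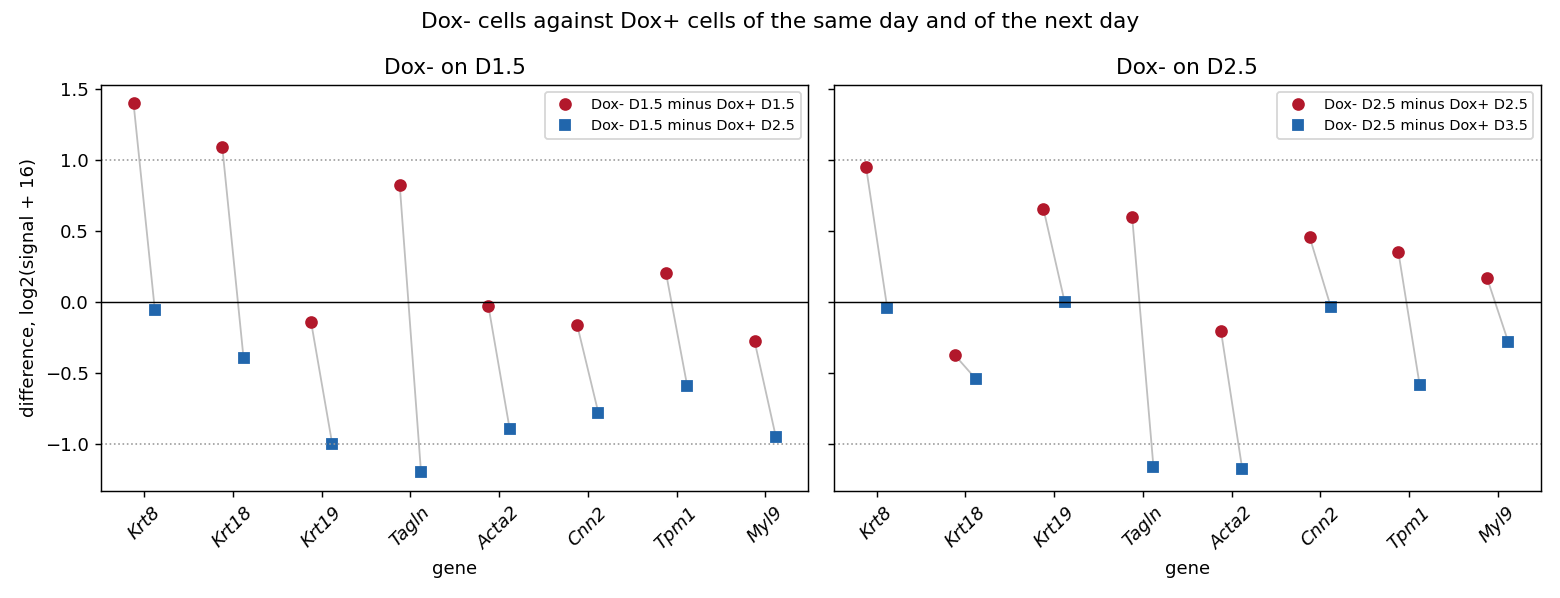
Difference of log2(signal + 16) between Dox- cells and Dox+ cells of the same day (red circles) or of the next day (blue squares), for Dox- cells of D1.5 (left) and D2.5 (right), 1 array each; dotted lines mark 2-fold. The squares of Krt8 lie at -0.06 and -0.04, and those of Tagln at -1.20 and -1.16.

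The last step, from D2.5 to D3.5, was steeper in Dox- for some members and in Dox+ for others. Over it Acta2 rose by 2.52 in Dox- and 0.97 in Dox+, Krt18 by 2.33 and 0.17, Krt8 by 2.27 and 1.00, and Krt19 by 1.95 and 0.66. Tpm1 rose by 1.41 in Dox- and 0.94 in Dox+, and Cnn2 by 0.86 and 0.49. Tagln and Myl9 were steeper in Dox+. Tagln rose by 1.57 in Dox- and 1.76 in Dox+, and Myl9 by 0.25 and 0.45. Over the step before, from D1.5 to D2.5, Krt8 rose by 1.01 in Dox- and 1.455 in Dox+, and Krt18 by 0.02 and 1.49. Tagln and Acta2 were also steeper in Dox+ there, and Krt19, Cnn2, Tpm1 and Myl9 in Dox-. The steps are differences of single arrays. How far the media differ in the last step follows from the D2.5 and D3.5 differences given above. The share of all tested genes steeper in Dox- was not counted.

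Genes that act with actin were called more often between the days than between the media, as were genes at large. Between the days 11.8% of all tested genes were called higher and 10.2% lower, against 2.83% and 4.35% in the late fit, and the counts of each list below are to be read against these shares. Of the 12 actin, tropomyosin and calponin relatives 10 were tested, and 6 were called higher and 0 lower on D3.5 than on D0.5, with a median of 0.57 against 0.02 over all tested genes. The largest were Actc1, cardiac actin, which rose by 2.64 ± 0.38, the actin-binding caldesmon gene Cald1 by 2.14 ± 0.28, and Tpm4, a non-muscle tropomyosin gene, by 1.80 ± 0.21 (SE, 2 arrays a day; limma adjusted p = 0.00874, 0.00729 and 0.00524). Actc1 and Acta1 among these read under 50 on the undifferentiated and D0.5 arrays, and so did Flnc and Fhl2 of the next list, Nes, Ccn1 and Ltbp1. These genes passed the filter only through later arrays and had to differ, so their calls between the days are descriptions. Of the 22 myosin, stress fibre and focal adhesion genes 17 were tested, and 11 were called higher and 1 lower, with a median of 0.69. The LIM domain genes Fhl1, Fhl2 and Csrp1 had the largest changes, at 2.43 ± 0.29, 1.84 ± 0.33 and 1.72 ± 0.36 (limma adjusted p = 0.00605, 0.0153 and 0.0221). The 1 that fell was Actn4, a non-muscle actinin gene (-0.90 ± 0.13; limma adjusted p = 0.00874). In the late fit 0 of the 10 actin relatives were called, and Actc1 differed most among them (1.14 ± 0.29, limma adjusted p = 0.0646). Of the 17 stress fibre genes 1, Pdlim5, was called higher in Dox- (0.81 ± 0.19, limma adjusted p = 0.0479). Fhl2 (1.04 ± 0.27) and Fhl1 (0.89 ± 0.21) differed more and were not called (limma adjusted p = 0.0684 and 0.0511).

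Among filament and desmosome partners of the keratins, 16 genes were listed and 7 tested, with 3 called higher and 0 lower on D3.5 than on D0.5. Dsp encodes desmoplakin, which ties keratin filaments to desmosomes. It read 75.4, 163, 608 and 1320 on the Dox- arrays, 97.7, 107, 175 and 405 on the Dox+ arrays, and 145 in undifferentiated cells. It rose with the days by 2.88 ± 0.49, and Dsg2, a desmosomal cadherin, by 2.18 ± 0.36 (limma adjusted p = 0.0135 and 0.0127). Nes, the neural and progenitor filament gene nestin, rose by 1.40 ± 0.32 (limma adjusted p = 0.0296). In the late fit, Dsp and the mesenchymal filament gene Vim were the 2 of these 7 called higher in Dox-, by 1.69 ± 0.20 and 1.18 ± 0.15 (limma adjusted p = 0.00703 and 0.00772), and 0 were called lower. Pkp2, a desmosomal plaque gene, gave -0.56 ± 0.20 (limma adjusted p = 0.147). Of the 10 keratins and regulators of stratified epithelium only Krt10 passed the signal filter, with a change of 0.20 ± 0.21 between the days (limma adjusted p = 0.526).

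Regulators known to act on keratin or epithelial genes did not move as a block. Of 14 listed, 6 were tested, and between D0.5 and D3.5 0 were called higher and 3 lower, Klf4 by -3.12 ± 0.54, Grhl2 by -1.56 ± 0.41 and Klf5 by -1.54 ± 0.30 (limma adjusted p = 0.0136, 0.0421 and 0.0193). In the late fit, 3 were called higher in Dox- and 1 lower. The caudal factor gene Cdx2 read 225 and 915 in Dox- and 4.9 and 42.0 in Dox+ on these days (3.77 ± 0.25; limma adjusted p = 0.00135). Tfap2c, an AP-2 factor of trophectoderm and germ cells, read 141 and 162 in Dox- and 9.9 and 41.9 in Dox+ (2.11 ± 0.29; limma adjusted p = 0.00895). Cdx2 reached 50 on these 2 Dox- arrays alone, and Tfap2c on them and in undifferentiated cells. Both were thus tested only with the help of the arrays where they are high, and their late differences are descriptions. The differences of Klf4 and of the epithelial factor gene Grhl2 were 1.28 ± 0.29 and -1.18 ± 0.15 (limma adjusted p = 0.0459 and 0.00756), and that of the epithelial splicing gene Esrp1 was -1.42 ± 0.34 (0.0548). Of the 10 SRF and YAP immediate targets 6 were tested, and Fos was called higher in Dox- (2.08 ± 0.24) and the matrix protein gene Ccn2 lower (-1.71 ± 0.15; limma adjusted p = 0.00641 and 0.00287). Ccn2 read 249 and 175 in Dox- and 794 and 648 in Dox+ on these days, opposite in direction to Acta2 on D3.5. Egr1, not called in the late fit, gave 0.68 ± 0.71 (limma adjusted p = 0.597). That value averages opposite differences, 2.54 on D2.5 (618 in Dox- and 93.0 in Dox+) and -1.17 on D3.5 (211 and 495). Between D0.5 and D3.5, 2 of these 6 were called higher, Ccn1 and Amotl2, and 1 lower, Ier2. Of the 7 TGF beta targets 4 were tested. Between the days 1 rose (Ltbp1, 1.49 ± 0.23) and 1 fell (Tgfbi, -2.69 ± 0.73), and Skil was the 1 called lower in Dox- in the late fit (-0.77 ± 0.10), with limma adjusted p = 0.0106, 0.0462 and 0.00851. Tgfbi gave 0.81 ± 0.62 in the late fit (limma adjusted p = 0.469).

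**Figure D4:**
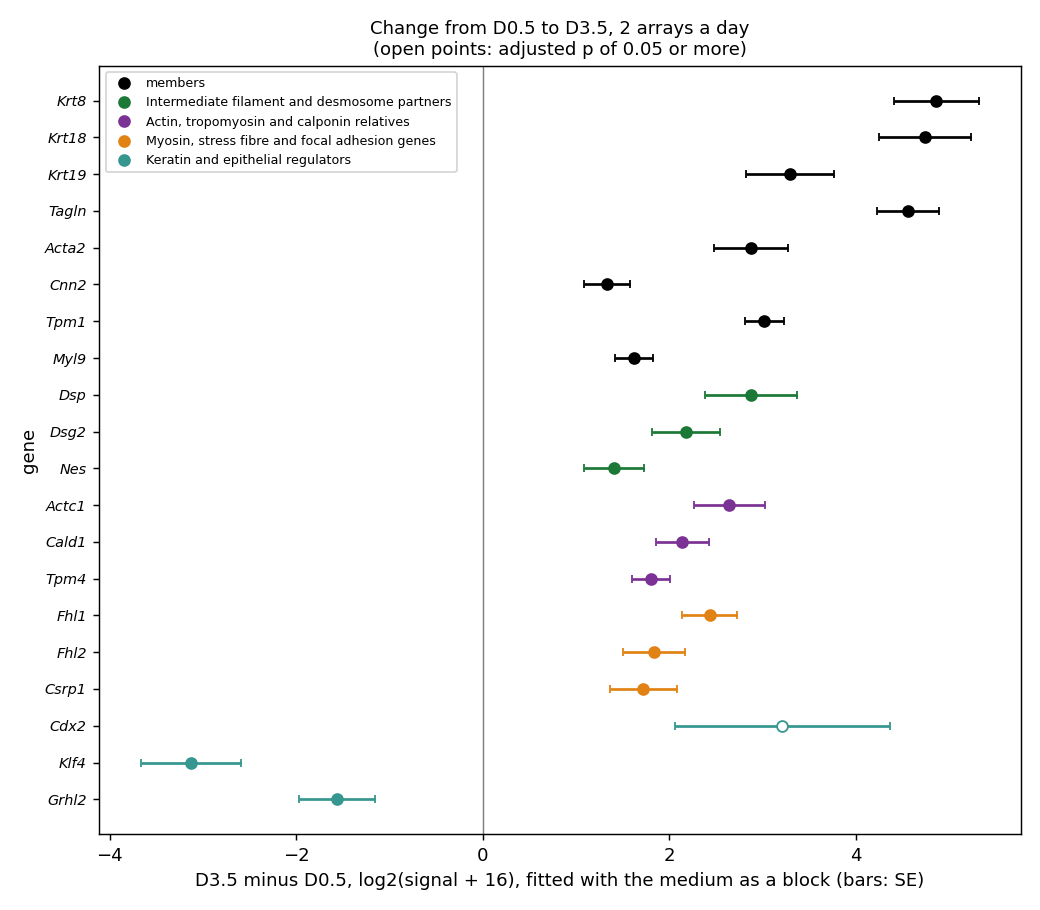
Fitted change from D0.5 to D3.5 on the log2(signal + 16) scale, with the medium as a block, for the 8 tested members and the 3 largest changes of 4 partner lists (bars are SE, 2 arrays a day; open points did not pass). Krt8, Krt18 and Tagln lie furthest right at 4.86, 4.74 and 4.55, and Cdx2 (3.21) has the widest error, 1.15.

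The courses of the members resembled one another. Over the 9 arrays, Pearson's r between the 28 pairs of tested members had a median of 0.916 and lay between 0.791 (Krt18 and Cnn2) and 0.980 (Tagln and Tpm1). These arrays share the day of culture, which alone gives genes that rise with time a high r, so the coefficients describe and carry no p. Of all tested genes, those most like Krt8 were Cd44 (r = 0.993), an adhesion receptor gene that on D3.5 read 361 in Dox- against 89.5 in Dox+, then Man2a2 (0.992), Tceal1 (0.992), Bag2 (0.992) and Spag9 (0.986). Those most like Tagln were Myh9, the heavy chain of non-muscle myosin IIA (0.984), Dpp8 (0.983), Tpm1 (0.980), Plekhg2 (0.979) and Il18 (0.978). The gene most like each other member was Extl2 for Krt18 (0.988), Psmb8 for Krt19 (0.983), S100a6 for Acta2 (0.981), Smim10l1 for Cnn2 (0.985), Epb41l5 for Tpm1 (0.995) and Grk3 for Myl9 (0.986).

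Markers of smooth muscle, in which several contractile members are typical, stayed dim. None of the 8 smooth muscle markers reached 50 on any array, and their summed signal was 45.5 to 93.7 on the Dox- arrays, 47.7 to 112 on the Dox+ arrays and 54.4 in undifferentiated cells. This list includes the member Cnn1, already described as below 50, which gave 41.4 of the 112 in Dox+ on D3.5. Myh11, Lmod1 and Actg2 stayed under 16 throughout. None of the 5 surface ectoderm markers reached 50 either (sums of 36.8 to 73.2, 25.4 to 56.6 and 33.9), and Trp63, Krt14 and Dlx5 stayed under 16. Of 7 cardiac muscle markers 3 reached 50, with sums of 88.3 to 326, 78.3 to 169 and 87.9, and on D3.5 the sum was 326 in Dox- and 169 in Dox+. Myh6 went the other way on that day, at 3.7 in Dox- and 28.6 in Dox+. The summed signals of 4 other lists were higher in Dox- than in Dox+ on D3.5, as the tested keratins and Acta2 were. Markers and members differed more on D2.5, when no tested member was 2-fold apart and Krt18 and Acta2 were lower in Dox-. Every mesoderm marker was higher in Dox- on that day, among them Mesp1 (1432 against 14.6 in Dox+) and Pdgfra (729 against 4.0). The 10 trophoblast markers include the member Krt7, and 6 of the 10 reached 50 on some array. They summed to 148 to 2577 on the Dox- arrays, 114 to 1050.0 on the Dox+ arrays and 343 in undifferentiated cells. On D3.5 the largest part was Cdx2 in Dox- (915 of 2577) and Eomes in Dox+ (911 of 1050.0). Single trophoblast markers went both ways on D3.5, with Plac1 at 750.1 in Dox- and 10.7 in Dox+ but Eomes at 540.3 in Dox- and 911 in Dox+, while Elf5 and Tpbpa stayed under 16 on every array. The 6 mesoderm markers, all of which reached 50, summed to 69.3 to 3658 on the Dox- arrays, 56.1 to 732 on the Dox+ arrays and 81.4 in undifferentiated cells. Hand1 is counted both in this list and in the trophoblast list. The 9 fibroblast or feeder markers, 6 of which reached 50, summed to 61.8 to 957 (Dox-), 64 to 237 (Dox+) and 73.7 (undifferentiated), with Postn and Lum under 16. On D3.5 Pdgfrb made up the largest part of the Dox- sum (495 of 957). Dcn (8.2 in Dox- and 62.8 in Dox+) and Thy1 (25.5 and 36.6) went the other way. The 10 extraembryonic endoderm markers, 7 of which reached 50, summed to 594 to 2044 (Dox-), 453 to 779 (Dox+) and 1011 (undifferentiated), with Afp under 16. Sparc made up the largest part of their sum on D3.5, at 1313 in Dox- and 607 in Dox+. The part of these cell types in the member values was not tested.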

How the data were processed

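Gene expression was measured on 9 arrays of mouse ES cells, grouped by day and medium from the labels. The authors deposited 1 table of intensity values for 45101 probe sets. Per the submitters' processing notes they come from GCOS (the software of Affymetrix scanners), and per the labels scaled to an average of 100. The sources used here name no background correction, detection filter, scan batch or extraction batch. Symbols are those of GEO's platform annotation, brought up to date by gene ID against RefSeq (GRCm38.p6).

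Of several probe sets with only 1 symbol, the brightest stands for its gene. Values are log2(signal + 16), with no further normalization. Genes that read 50 or more on 2 or more arrays were tested with limma (version 3.58.1, R 4.3.3; lmFit, then eBayes with a trend) on the 8 differentiating arrays. The medium was tested with the day as a block, the days with the medium as a block (3 residual degrees of freedom each), and the product of medium and day with 4. The late fit had the day as a block and 1 medium term, for D2.5 and D3.5 only. A call is a p below 0.05 after Benjamini-Hochberg adjustment over all tested genes, and single arrays are described by 2-fold. The fits were tested on simulated data. The members and lists were chosen with earlier results of these data known. Named genes are all members, the 3 largest changes of each list in at least 1 comparison, called or not, and the genes most like each member. 1 further list is not reported here. Other listed genes named as called, and cell type markers, were chosen after their values were seen.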

Additional observations from a re-analysis of the deposited data

How the results depend on the processing

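With 1 array per group, single-day values have no error, and dim signals depend on the pseudocount. Alternatives for the rise from D0.5 to D3.5 kept all 8 members called, except that a signal minimum of 100 on at least 2 arrays left Krt19 untested. Of these, Krt8, Krt18, Krt19, Tagln and Myl9 passed the main filter only through later arrays, so their calls are descriptions. The size of the rise moved more, to 0.98 for Acta2 with the mean of all probe sets, and at pseudocounts of 64 and 1 to 1.99 and 4.82 for Krt19 and 1.06 and 1.97 for Myl9. The 0 calls over the 4 days, and the 0 for the change with day, stayed 0 under every alternative, including no day block. The 1 call of the late fit became 0 without the filter and without the trend, and leaving out 1 day gave 0 to 4. Without D2.5 the calls were Acta2, Krt19, Tpm1 and Cnn2, and without D1.5 Krt8 and Cnn2. At a pseudocount of 1, 1 member was at least 2-fold higher and 1 lower in Dox- on D0.5, 2 were higher than undifferentiated cells in Dox- on D0.5, and 4 were lower than next-day Dox+ cells both for D0.5 and for D1.5. A pseudocount of 64 left 1 member higher in Dox- on D1.5. It left 0 higher than undifferentiated cells on D0.5 in either medium, and on D1.5 it left 3 for Dox- and 1 for Dox+. Lower than next-day Dox+ cells were then 1, 0 and 1. In the last comparison, median centring left 1 on D1.5 and the mean of all probe sets 1 on D2.5. Over the 4 days Acta2 turned to -0.023 with the mean of all probe sets, and leaving out a day gave -0.16 (without D3.5) to 0.37. In the late fit, leaving out a day gave -0.20 to 1.35 for Acta2 and -0.37 to 1.79 for Krt18, both lowest without D3.5, and -0.031 (without D2.5) to 0.17 for Myl9. The change with day was -0.22 (without D3.5) to 0.54 for Krt18 and -0.21 (without D0.5) to 0.59 for Tagln. Median centring shifted the median tested gene of the Dox- array of D3.5 by -0.1025, and by less than that on each other array. The causes were not tested. The Dox- and Dox+ arrays were paired by day as the block of the fit over 4 days. The labels carry no replicate numbers to pair by otherwise.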
